A study of Mus musculus with 2 samples.

Results

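The level of 35 imprinted genes was examined in the adult heart of a hybrid mouse. They were taken from a fixed list of symbols, matched through the gene identifiers of the transcript tables to the gene tables. All 35 were found, among 55536 mouse genes in all, and they fall into 17 clusters or single loci. Genomic imprinting silences 1 parental copy of a gene according to the parent it came from, and the genes it governs sit in clusters, each under an imprinting control region whose CpG methylation is laid down in egg or sperm. Many of these genes control growth before birth, and their level in most organs is known to drop after birth, so the adult heart is a tissue in which a cluster can be silent, active or split between its members. By textbook knowledge 10 are read from the maternal copy (H19, Cdkn1c, Phlda2, Slc22a18, Igf2r, Meg3, Rian, Mirg, Zim1 and Grb10), 21 from the paternal copy, and 4 (Ube3a, Copg2, Gnas and Trappc9) from both copies or from 1 copy depending on the tissue. These classes come from background knowledge and not from the data.

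The hearts came from 2 adult male B6CASTF1/J mice, labelled animals 2 and 4, aged 8 to 10 months. B6CASTF1/J animals are first-generation hybrids of the C57BL/6J and CAST strains, so each gene has a copy from each strain. The tables used here give 1 value per gene or transcript with no split by strain, so no level below says which parental copy was read. Both libraries form 1 group, called replicate 1 (animal 2) and replicate 2 (animal 4), with no contrast between conditions, and both carry the same donor entry in the labels. Expected counts on mouse genes came to 42.05 M in replicate 1 and 39.98 M in replicate 2. The 7 cardiomyocyte markers ranged from Ryr2 at 358 and 376 TPM to Myl2 at 7659 and 8307 TPM, and the neuronal markers Snap25, Syt1 and Rbfox3 stayed at or below 0.11 TPM. Of all 8 neuron and glia markers only Stmn2, at 2.71 and 1.90 TPM, passed 1 TPM in both. TPM is a count divided by transcript length and scaled to a fixed sum in each library, so it can be compared between genes.

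Several of these genes are hosts of microRNAs, and the RefSeq table (GRCm38.p6) placed 29 hairpins inside 8 of them, 23 on the host's own strand and 6 on the opposite strand, all 6 of those inside Rtl1. The mature sequences below are shown because the genes that hold them divide by level in these hearts: H19, Igf2, Mest and Meg3 passed 1 TPM in both libraries, while Mirg and Rtl1 did not. Those within Rtl1 lie on its opposite strand, so its level does not describe their precursor. Each is written 5′ to 3′ with the seed, bases 2 to 8, in capitals.
miR-675-5p, in H19: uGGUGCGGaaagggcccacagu
miR-675-3p, in H19: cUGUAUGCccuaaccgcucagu
miR-483-3p, in Igf2: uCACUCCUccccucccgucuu
miR-335-5p, in Mest: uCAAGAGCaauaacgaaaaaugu
miR-770-5p, in Meg3: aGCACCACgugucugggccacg
miR-127-3p, antisense to Rtl1: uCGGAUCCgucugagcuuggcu
miR-136-5p, antisense to Rtl1: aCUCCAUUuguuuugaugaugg
miR-453, in Mirg: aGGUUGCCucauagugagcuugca
miR-496a-5p, in Mirg: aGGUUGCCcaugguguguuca
The 55 mature sequences of these hairpins carry 54 distinct seeds. The only shared seed is that of miR-453 and miR-496a-5p, both in Mirg, where the capitals are identical. MicroRNA and snoRNA genes themselves could not be measured in these libraries. GENCODE lists 254 of them within the bounds of 10 of the imprinted genes, 208 of these in Snhg14. All 254 had 0 counts in both quantifications, and 252 have an effective length of 0 in the deposited gene tables, which allows them no count.

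By the RSEM-layout quantification, 22 of the 35 imprinted genes (62.9%) reached 1 TPM in both hearts, and 13 did not. Among all protein-coding and long noncoding genes 34.4% did so, and among all mouse genes 20.9%. The 2 kinds of gene differ in that share, and so they are given apart. Of 27 protein-coding members 16 passed (59.3%), beside 48.9% of all protein-coding genes. Of 8 long noncoding members 6 passed (75.0%), beside 2.95% of 10155 long noncoding genes. Among these 6, Airn, Snhg14 and Peg13 overlap another expressed gene, whose reads may be among their counts. Meg3 and Rian passed narrowly. At 10 TPM or more in both hearts stood 10 members (28.6%), beside 14.1% of protein-coding and long noncoding genes. The members were picked as well-studied genes with results of these data known, so these shares describe the list and were not tested. In bulk tissue, fewer cells of a type and less RNA per cell cannot be told apart, and this holds for every level below.

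**Figure D1:**
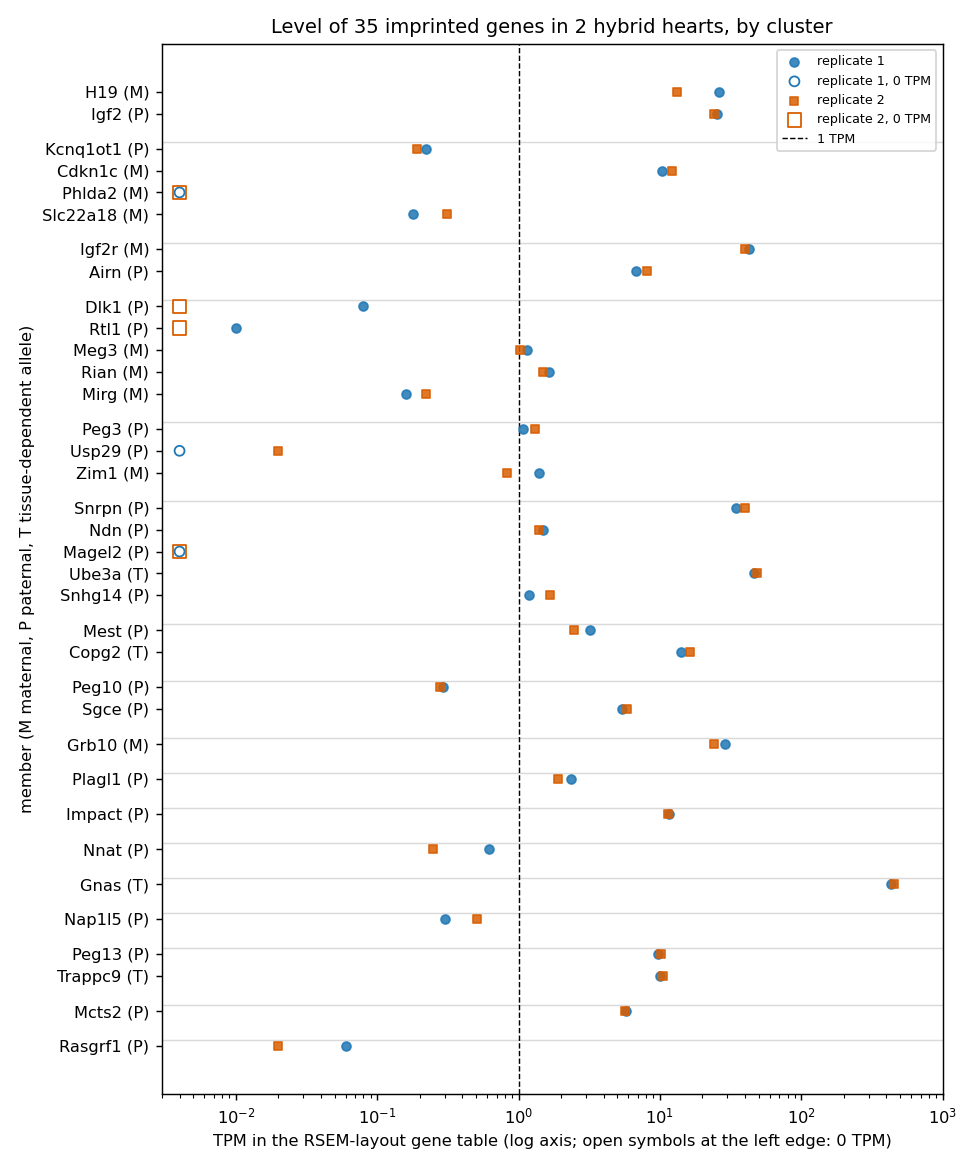
Level in TPM (log axis) of the 35 imprinted genes in replicate 1 (circles) and replicate 2 (squares), grouped by cluster, with open symbols at the left edge for 0 TPM and the dashed line at 1 TPM. Gnas lies above 430 TPM, 22 genes lie at or right of the line in both hearts, and Phlda2 and Magel2 are at 0 in both.

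The median over the 35 genes was 1.64 TPM in replicate 1 and 1.66 TPM in replicate 2, beside 0.07 and 0.06 TPM over all protein-coding and long noncoding genes. Among those that passed 1 TPM, the median was 9.86 and 10.3 TPM for the members, and 8.01 and 8.11 TPM for all such genes. Read together, the 35 genes summed to 728 TPM in replicate 1 and 738 TPM in replicate 2, and Gnas alone held 59.6% and 61.5% of that sum. By parental class, 6 of 10 maternal, 12 of 21 paternal and 4 of 4 tissue-dependent genes passed 1 TPM. The share over all protein-coding and long noncoding genes was 34.4%. Whether reads from the copies of the 2 strains were counted alike on the single reference, mm10, was not tested. At 10 TPM stood 4 maternal genes (H19, Igf2r, Grb10 and Cdkn1c), 3 paternal genes (Igf2, Snrpn and Impact) and 3 tissue-dependent genes (Gnas, Ube3a and Copg2). The median level of the maternal genes was 1.51 and 1.26 TPM in the 2 libraries and that of the paternal genes 1.19 and 1.39 TPM, so the order of these 2 classes turned over between the animals.

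**Figure D2:**
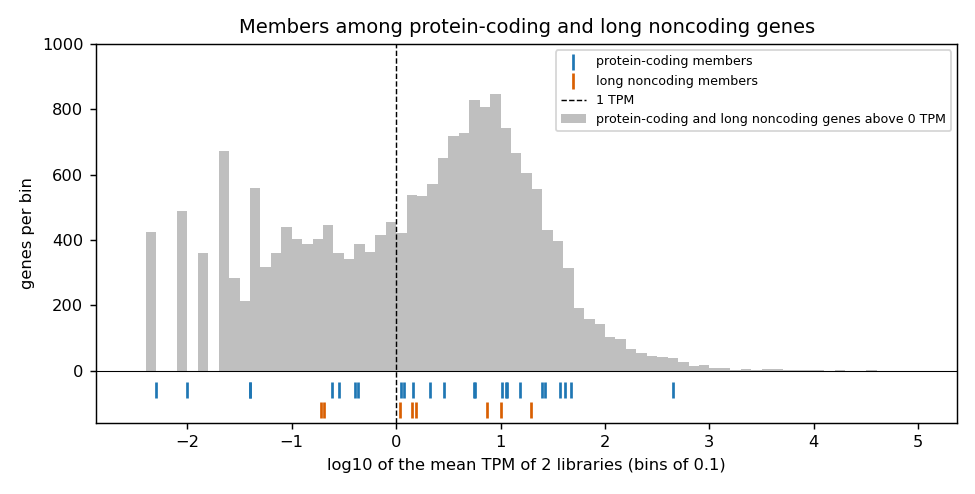
Histogram of log10 mean TPM of all protein-coding and long noncoding genes above 0 TPM (grey bars, bins of 0.1), with 1 tick below the axis for each member above 0. Members are spread on both sides of 1 TPM (dashed), and the long noncoding ticks reach H19 at a mean of 19.7 TPM.

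H19 and Igf2 share an enhancer set and a control region on chromosome 7. H19 (ENSMUSG00000000031.16, 142575529 to 142578143 on mm10, minus strand) gives a noncoding RNA that hosts miR-675, printed above, and Igf2 (ENSMUSG00000048583.16, 142650766 to 142666816, minus strand) encodes insulin-like growth factor 2, a fetal growth factor. Both stayed readily measurable in the adult heart. H19 was at 26.1 TPM in replicate 1 and 13.3 TPM in replicate 2 (1548 and 836 counts), a mean of 19.7 ± 9.03 TPM (SD, n = 2). It ranked 23rd by mean TPM among 10155 long noncoding genes. Igf2 was at 25.4 and 24.3 TPM (24.9 ± 0.834 TPM, SD, n = 2), above 93.2% of protein-coding and long noncoding genes. In replicate 1 the levels of H19 and Igf2 were nearly equal, whereas in replicate 2 H19 was lower, with log2 ratios of (TPM + 0.1) of 0.04 and -0.86. Igf2 shares 61.9% of its 31-base words with other genes on the same strand, chiefly the annotated gene Gm49394, to which no count was assigned in either library. Among the neighbours Lsp1, a leukocyte actin-binding protein, was at 14.0 and 12.1 TPM, and the fast troponin genes Tnnt3 and Tnni2 lay between 1.77 and 2.64 TPM. Ins2 was listed at 0 in both hearts.

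Receptors and adaptors of the growth factor pathway were also present. Igf2r (ENSMUSG00000023830.14, chromosome 17, 12682406 to 12769664, minus strand) encodes the mannose 6-phosphate receptor that clears IGF2, and it was at 42.9 and 39.8 TPM (41.3 ± 2.16 TPM, SD, n = 2). Its level exceeded that of its ligand Igf2 by 0.75 and 0.71 on the log2 scale, and the libraries differed little in that ratio. Airn (12741311 to 12860136, plus strand), the paternal noncoding RNA that runs antisense across the Igf2r start, was at 6.76 and 8.10 TPM (227 and 259 counts). It ranked 59th among long noncoding genes. Igf2r, which it crosses antisense, had 13051 and 11468 counts. The kit kept strand, but whether the counting used it is not given in the sources used here, so the level of this and of every other antisense overlap below is uncertain. The transcript length that the RSEM-layout quantification gave Airn in replicate 1 is 1066 bases, a small part of that interval. Reads from the rest of an unspliced Airn RNA fall outside its annotated transcripts. Of the neighbours, the organic cation transporter gene Slc22a3 was at 6.31 and 6.75 TPM, and Slc22a2 was listed at 0 in both hearts.

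Grb10 (chromosome 11, 11930508 to 12038683, minus strand) encodes an adaptor that binds insulin and IGF1 receptors and restrains their signal. It stood at 29.1 and 24.2 TPM (26.6 ± 3.44 TPM, SD, n = 2), and its mean lay above that of 93.6% of protein-coding and long noncoding genes. The list for the IGF axis holds 19 genes, Igf2r and Grb10 included. Of these 13 passed 1 TPM in both hearts, beside 48.9% of all protein-coding genes. The highest were the related adaptor Grb14 (79.3 and 95.9 TPM), the insulin receptor Insr (49.6 ± 0.622 TPM, SD, n = 2), Igf2r, and the binding protein Igfbp5 (44.9 and 33.7 TPM). Igf1r, the receptor through which IGF2 signals, was lower at 3.59 and 4.06 TPM, and Igf1 was at 2.87 and 4.33 TPM.

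The Kcnq1ot1 domain, next to H19 and Igf2, was split. Cdkn1c (143458339 to 143461050, minus strand), an inhibitor of cyclin-dependent kinases, was at 10.3 and 12.1 TPM (11.2 ± 1.24 TPM, SD, n = 2). Slc22a18, a transporter, was at 0.18 and 0.31 TPM with 9 and 13 counts. Phlda2, a restraint on placental growth, had no count in either heart, and 3 counts in its transcripts would have given 0.216 TPM in replicate 1 and 0.229 TPM in replicate 2. The noncoding RNA that silences the domain on the paternal copy, Kcnq1ot1 (143203458 to 143296549, minus strand), showed how length enters the unit. It had 718 and 572 counts, 27th by counts among long noncoding genes, but only 0.22 and 0.19 TPM, because its single annotated transcript is 93092 bases long. That came to 7.71 and 6.14 reads per kilobase, against 858 and 416 for H19. Kcnq1, the potassium channel gene that it crosses antisense, was at 10.8 and 13.6 TPM with 1098 and 1227 counts, and the counts of Kcnq1ot1 could include reads of its RNA. Of 12 neighbours listed for the domain 8 passed 1 TPM, beside 48.9% of all protein-coding genes. The highest neighbours were Cd81 (142 and 148 TPM) and the histone chaperone gene Nap1l4 (65.7 and 66.5 TPM).

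At the Dlk1-Meg3 cluster on chromosome 12 only maternal noncoding RNAs passed 1 TPM, and they did so narrowly. Meg3 (109541001 to 109571726, plus strand) was at 1.15 and 1.03 TPM (71 and 54.5 counts) and Rian (109603940 to 109661716, plus strand), host of snoRNAs, at 1.64 and 1.49 TPM. Mirg (109729764 to 109749460, plus strand), host of 14 of the hairpins, was at 0.16 and 0.22 TPM on only 8 and 9 counts. These 3 RNAs lie in the same direction on 1 stretch, and Rian was the highest and Mirg the lowest of them in both hearts. The paternal protein-coding genes were at the limit of detection. Dlk1, a membrane protein related to Notch ligands, had 3 counts in replicate 1 and 0 in replicate 2, and Rtl1, a gene derived from a retrotransposon, had 2 and 0. A count of 3 would have given 0.0478 TPM for Dlk1 and 0.0146 TPM for Rtl1 in replicate 2. Dio3, at the far end of the cluster, was listed at 0 in both hearts, whereas the general genes next to the cluster were present, with Ppp2r5c at 33.6 and 38.0 TPM and Yy1 at 12.1 and 11.9 TPM.

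The Peg3 domain on chromosome 7 lay near the threshold. Peg3 (6703892 to 6730431, minus strand), a zinc finger protein, was at 1.07 and 1.30 TPM with 281 and 262 counts. Zim1 (6671269 to 6696450, minus strand), its maternally read neighbour, was at 1.39 and 0.83 TPM and was the 1 member that passed 1 TPM in a single library. Which of the 2 was higher depended on the library and on the quantification. The log2 ratio of (TPM + 0.1) of Peg3 over Zim1 was -0.35 in replicate 1 and 0.59 in replicate 2. Usp29 (6730578 to 6967219, plus strand), a ubiquitin protease gene that starts beside Peg3 and runs the other way, had 0 and 2 counts. Zim2 and Zim3 were listed at 0 in both hearts, while Clcn4, a chloride-proton exchanger, was at 17.2 and 18.01 TPM.

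Genes of the Prader-Willi and Angelman region on chromosome 7 covered the whole range from silent to abundant. Snrpn (59982495 to 60140219, minus strand), which encodes a splicing protein, was at 34.8 and 40.1 TPM (37.4 ± 3.77 TPM, SD, n = 2). Ube3a (59228750 to 59311536, plus strand), a ubiquitin ligase read from the maternal copy in neurons and from both in most tissues, was at 46.4 and 48.6 TPM (47.5 ± 1.53 TPM, SD, n = 2). The long RNA that silences Ube3a in neurons, Snhg14 (59307924 to 59975759, minus strand), was at 1.19 and 1.66 TPM. Ube3a exceeded Snhg14 by 5.17 and 4.79 on the log2 scale of (TPM + 0.1). The pass of Snhg14 is uncertain in the same way, since 10.8% of its 31-base words occur in reverse in other genes, chiefly Ube3a, which had 5970 and 6093 counts against 107 and 140. Ndn, encoding the growth regulator necdin, was at 1.49 and 1.39 TPM. Magel2, its neighbour and relative, had no count in either heart, and 3 counts would have given 0.019 and 0.0202 TPM. Among the genes nearby Mkrn3 was at 0.08 and 0.07 TPM and Peg12 at 0.48 and 0.24 TPM, while Herc2, beyond the domain, was at 16.9 and 16.4 TPM. Of the neuronal markers Snap25, Syt1 and Rbfox3 were near 0 in both libraries, and Stmn2 was at 2.71 and 1.90 TPM.

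How much of the Snrpn locus was credited to Snrpn turned on the quantification. Snurf is a short reading frame at the head of the same RNA and is annotated as its own gene of 216 bases. The RSEM-layout tables gave Snurf 102.6 and 115.2 TPM on 414 and 439 counts, more TPM than Snrpn itself on fewer counts, and the second quantification gave it 0. Snrpn changed less, at 32.6 and 34.9 TPM in the second quantification. The start of the RNA changed fully. The RSEM-layout tables placed 100% and 92.3% of Snrpn on the transcript that starts farther downstream, and the second quantification placed 100% in both libraries on the one that starts 135108 bases upstream. The start used in the heart therefore cannot be read from these tables.

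Mest and Copg2 overlap tail to tail on chromosome 6. Mest (30723547 to 30748465, plus strand), a hydrolase gene used as a marker of mesoderm and of adipose growth, was at 3.21 and 2.48 TPM (2.85 ± 0.516 TPM, SD, n = 2), and its level in the second quantification was 2.37 and 1.42 TPM. Copg2 (30747554 to 30896794, minus strand), a coat protein of Golgi vesicles, was at 14.2 and 16.3 TPM, above Mest by 2.11 and 2.67 on the log2 scale of (TPM + 0.1). Of the 31-base words of Mest 22% occur in reverse in transcripts of other genes, chiefly Copg2. Reads in that overlap are uncertain, as for Airn. Its parent family member Copg1 was close to Copg2 at 14.3 and 13.2 TPM.

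Peg10 and Sgce start from 1 shared region on chromosome 6 and run apart. Sgce (4674350 to 4747207, minus strand), epsilon-sarcoglycan of the dystrophin-associated complex, was at 5.42 and 5.81 TPM (5.62 ± 0.276 TPM, SD, n = 2). Peg10 (4747306 to 4760517, plus strand), a retrotransposon-derived gene required in placenta, was at 0.29 and 0.28 TPM with 66 and 59 counts. Sgce exceeded Peg10 by 3.82 and 3.96 on the log2 scale of (TPM + 0.1). These 2 paternal genes that begin side by side thus differed alike in both hearts. Its relatives Sgca, at 72.0 and 85.05 TPM, and Sgcb, at 41.2 and 43.4 TPM, were higher than Sgce.

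Gnas was the most abundant of the 35 genes. The locus (ENSMUSG00000027523.19, chromosome 2, 174284320 to 174346744, plus strand) makes several products from separate starts, including the neuroendocrine protein NESP55 from the maternal copy, the large XLαs from the paternal copy and Gsα, the G protein subunit that couples beta-adrenergic receptors to adenylyl cyclase, from both copies in most tissues. It stood at 434 and 454 TPM (444 ± 13.9 TPM, SD, n = 2), above 99.6% of protein-coding and long noncoding genes. Annotated transcripts were gathered into groups whose starts lie within 1000 bases of each other, numbered from the 5′ end. Group 4, the start of Gsα, held 99.0% of the TPM in both libraries (430 and 449 TPM), and 84.8% and 84.1% in the second quantification. Group 1, the start of NESP55, held 0.03 and 0.25 TPM, and group 2 was listed at 0. Group 3, between groups 2 and 4, held 1.93 and 2.97 TPM but 70.1 and 72.9 TPM in the second quantification, so its share is uncertain. Nespas, antisense to the NESP55 end, was listed at 0 in both hearts.

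Grb10 was read mainly from 1 of its starts. Group 2 of its 8 start groups held 20.4 and 18.6 TPM, or 70.3% and 76.97% of the gene, and 64.9% and 80.2% in the second quantification. This is the promoter that is used from the maternal copy outside the brain. Group 3, downstream of it, held 0.88 and 1.63 TPM, and group 4 held 7.55 and 3.64 TPM in the RSEM-layout tables but 0.352 and 0.0655 TPM in the second quantification.

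The promoter windows of Gnas and Grb10 are shown because each gene pairs a start that carried most of its RNA with one that carried little. They run from 250 bases before to 50 bases after a RefSeq start (GRCm38.p6), 5′ to 3′ on the gene's strand, with every CpG in capitals.
Gnas start of group 1, chr2:174284070-174284369, plus strand: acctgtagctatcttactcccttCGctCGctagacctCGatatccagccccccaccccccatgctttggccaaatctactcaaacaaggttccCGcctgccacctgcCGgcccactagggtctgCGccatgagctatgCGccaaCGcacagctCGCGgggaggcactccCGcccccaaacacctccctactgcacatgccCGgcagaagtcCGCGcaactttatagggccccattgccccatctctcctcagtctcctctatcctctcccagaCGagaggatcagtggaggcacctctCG
Gnas Gsα start, chr2:174329756-174330055, plus strand: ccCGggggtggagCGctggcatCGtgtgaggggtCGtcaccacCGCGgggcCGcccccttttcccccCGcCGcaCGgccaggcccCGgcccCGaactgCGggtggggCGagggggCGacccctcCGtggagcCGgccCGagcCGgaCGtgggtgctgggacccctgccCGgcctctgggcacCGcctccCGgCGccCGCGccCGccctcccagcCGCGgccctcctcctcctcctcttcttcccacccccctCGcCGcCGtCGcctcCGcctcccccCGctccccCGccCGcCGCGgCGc
Grb10 main start, chr11:12037371-12037670, minus strand: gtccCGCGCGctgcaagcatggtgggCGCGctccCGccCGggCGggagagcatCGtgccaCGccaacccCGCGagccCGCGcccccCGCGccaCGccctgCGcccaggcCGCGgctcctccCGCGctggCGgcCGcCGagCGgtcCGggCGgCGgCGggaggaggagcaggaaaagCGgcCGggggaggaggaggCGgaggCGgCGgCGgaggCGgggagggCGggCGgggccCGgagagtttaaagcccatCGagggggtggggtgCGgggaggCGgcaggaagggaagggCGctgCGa
Grb10 start of group 3, chr11:12027922-12028221, minus strand: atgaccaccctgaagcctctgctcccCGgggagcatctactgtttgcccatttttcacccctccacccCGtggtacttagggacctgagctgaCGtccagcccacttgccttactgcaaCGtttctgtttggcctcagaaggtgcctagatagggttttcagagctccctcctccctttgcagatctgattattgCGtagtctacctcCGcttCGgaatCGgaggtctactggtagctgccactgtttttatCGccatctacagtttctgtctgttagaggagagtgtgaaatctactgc
The Gsα window holds 40 CpG and the main Grb10 window 45, and the little-used windows hold 16 and 9. A high CpG number did not always go with use, since the window of Phlda2, listed at 0, holds 26. The 2 windows at group 3 of Gnas hold 27 and 28, and that of Snrpn at its downstream start holds 7. The use of those starts differed between the quantifications, so their CpG number cannot be set against use. The median over 32851 RefSeq promoter windows is 7 CpG. The hexamer TGCCGC, the core of the sequence read by the imprint-protecting protein ZFP57, was searched on both strands. It occurs 1 time in the main Grb10 window, in none of the other windows printed here, and in 11.6% of all windows. Other members also hold it, 1 time in a window of Copg2, Igf2, Mcts2, Meg3, Nnat, Plagl1, Snrpn and Zim1. The window of Nap1l5 and those at group 4 of Mest hold it 2 times, so it does not set Grb10 apart. These are descriptions of letters, and no methylation was measured.

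**Figure D3:**
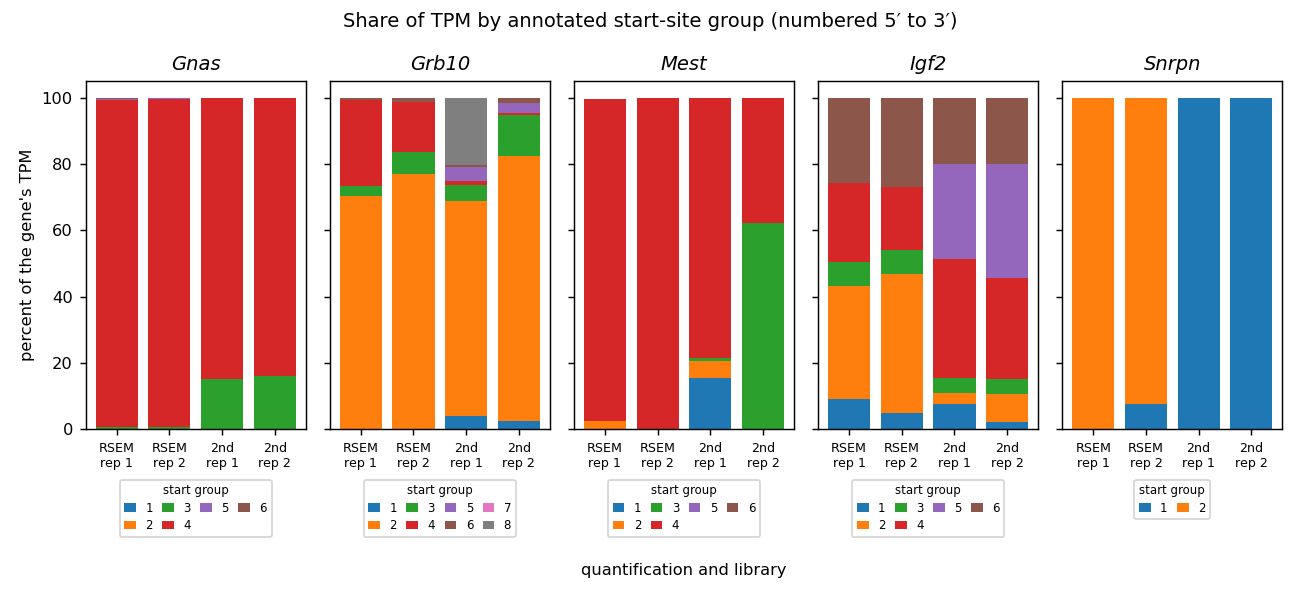
Percent of each gene's TPM by start-site group, numbered 5′ to 3′, for 5 imprinted genes in each library of the RSEM-layout tables and of the second quantification (2nd). The Gsα group of Gnas and group 2 of Grb10 lead in all 4 bars, whereas the leading group of Snrpn switches between quantifications.

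Isoform shares were stable for some genes and not for others. Among the 22 members at 1 TPM, 19 have more than 1 annotated transcript, and for 14 of these the leading transcript was the same in both quantifications. Igf2r carried 99.5% and 99.8% of its level in a single transcript in the 2 libraries. The leading transcript of H19 held 56.6% and 74.8%. The leading transcripts of Igf2, Snrpn, Ube3a, Copg2 and Impact changed with the quantification. For Igf2 start group 2 held 34.0% and 41.9% in the RSEM-layout tables, but 3.21% and 8.70% in the second quantification. Mest held 97.2% and 100% at its start group 4 in the RSEM-layout tables and 78.6% and 37.8% there in the second quantification. In replicate 2 of the second quantification its group 3 led instead, with 62.2%.

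The remaining loci hold retrogenes and single imprinted genes. Mcts2 (chromosome 2, 152687035 to 152687946, plus strand), a retrocopy of the translation factor Mcts1 that lies in an intron of H13, was at 5.73 and 5.63 TPM (5.68 ± 0.0707 TPM, SD, n = 2). Mcts1 was at 13.9 and 14.2 TPM and H13 at 12.2 TPM in both hearts. Only 6.2% of the 31-base words of Mcts2 occur in transcripts of other genes, so most of its sequence separates it from Mcts1. Nap1l5 (chromosome 6, 58905233 to 58907076, minus strand), a retrogene inside Herc3, was at 0.30 and 0.51 TPM with 18 and 29 counts, and Herc3 was at 10.2 and 13.1 TPM. Nnat (chromosome 2, 157560078 to 157562522, plus strand), the neuronatin gene inside Blcap, was at 0.62 and 0.25 TPM with 24 and 9 counts, and Blcap was at 18.8 and 18.7 TPM. Of these 3 intronic genes only Mcts2 passed 1 TPM, while all 3 hosts did. Mcts2 lies on the same strand as H13, which had 888 and 823 counts, so reads from unspliced H13 RNA can fall on it. The shared words cover annotated transcripts only and do not address such reads. Nap1l5 and Nnat lie on the strand opposite to their hosts.

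Peg13 and Trappc9 stood at nearly the same height. Peg13 (chromosome 15, 72805600 to 72810324, minus strand), a noncoding RNA from an intron of Trappc9 that carries the control region of the locus, was at 9.78 and 10.2 TPM (9.98 ± 0.290 TPM, SD, n = 2) and ranked 41st among long noncoding genes. Trappc9 (72589620 to 73061204, minus strand), a subunit of a vesicle tethering complex, was at 9.95 and 10.5 TPM (10.2 ± 0.396 TPM, SD, n = 2). The log2 ratio of (TPM + 0.1) of Trappc9 over Peg13 was 0.03 in replicate 1 and 0.04 in replicate 2. Trappc9 was thus slightly higher in both libraries, and the mean ratio in the second quantification was 0.04. Peg13 lies on the same strand as Trappc9, so reads from unspliced Trappc9 RNA can fall on it. Of the 31-base words of Peg13, 0.0% occur in annotated transcripts of other genes. Kcnk9, an imprinted channel gene nearby, was listed at 0 in both hearts, and Ago2 was at 23.3 and 20.9 TPM.

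Of the 3 other single loci, Impact, a regulator of the translation kinase GCN2, was the highest at 11.7 and 11.4 TPM (11.6 ± 0.156 TPM, SD, n = 2). Plagl1 (chromosome 10, 13060504 to 13131694, plus strand), a zinc finger transcription factor that regulates other imprinted genes, was at 2.35 and 1.91 TPM. Rasgrf1 (chromosome 9, 89909908 to 90026977, plus strand), an exchange factor for Ras known from neurons, had 6 and 3 counts and was at 0.06 and 0.02 TPM. Its relative Rasgrf2, not imprinted in the list used here, was at 4.01 and 4.29 TPM.

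**Figure D4:**
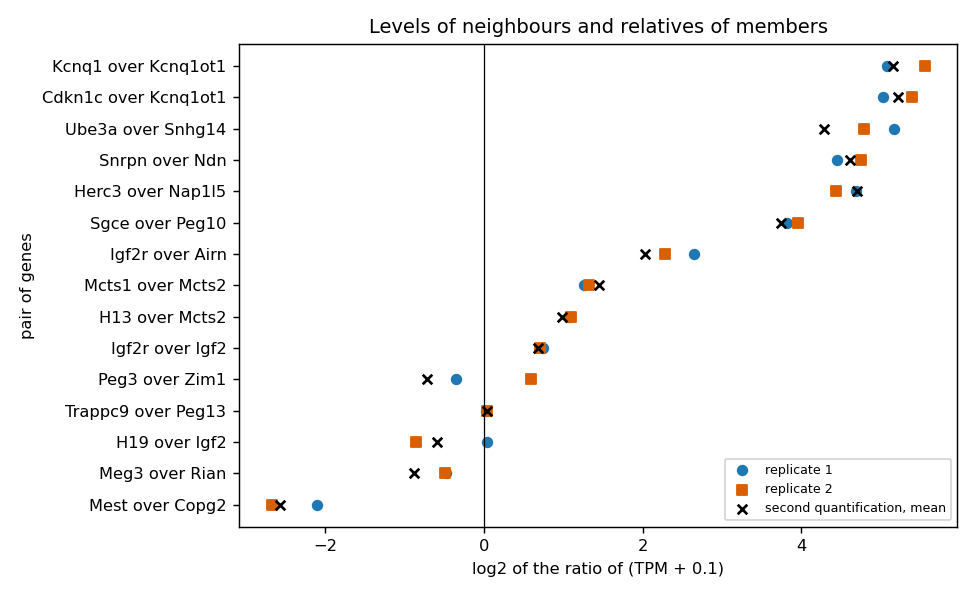
log2 ratio of (TPM + 0.1) within 15 pairs of cluster partners or relatives with at least 10 counts in each library, for replicate 1, replicate 2 and the mean of the second quantification. Trappc9 over Peg13 lies at 0.03, Kcnq1 over Kcnq1ot1 above 5, and H19 over Igf2 and Peg3 over Zim1 fall on both sides of 0.

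The imprinted genes differed between the 2 animals about as much as other genes did, with H19 the most unequal of those tested. Of the 35 genes 22 had 200 or more summed counts. None of these 22 passed the rule for a difference, a scaled ratio of 2-fold or more with its exact Clopper-Pearson counting interval excluding 1, beside 1.08% of 10960 genes. The interval leaves out 0.1% in its 2 tails. At 1.5-fold only H19 passed, beside 3.53% of genes. Both counts lie near the shares over all genes and mark no trait of the members. H19 was 1.78-fold higher in replicate 1 (interval 1.55 to 2.06). The median absolute log2 ratio was 0.14 over the 22 genes and 0.11 over all genes tested, so the members were not closer than other genes. Cdkn1c was 1.32-fold higher in replicate 2 (1.07 to 1.64) and Igf2 1.202-fold higher in replicate 1 (1.06 to 1.37). For Zim1, 1.41-fold higher in replicate 1, and Snhg14, 1.36-fold higher in replicate 2, the interval included 1. Gnas was 1.02-fold higher in replicate 2 (0.993 to 1.05).

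**Figure D5:**
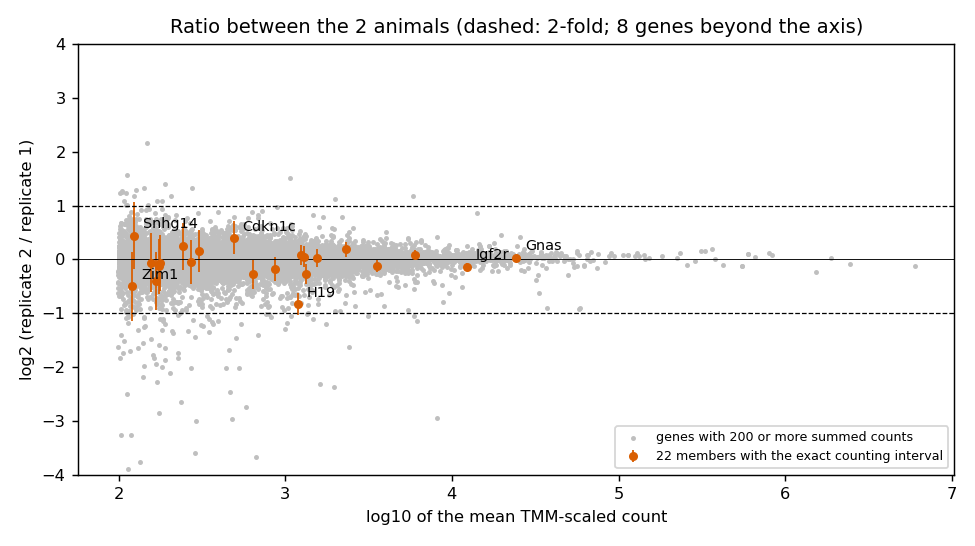
log2 ratio of replicate 2 over replicate 1 against log10 mean TMM-scaled count, for genes with 200 or more summed counts (grey) and the 22 imprinted genes among them (orange, bars are the same exact counting intervals). H19 at -0.84 lies closest to the 2-fold lines (dashed), and no imprinted gene lies beyond them.

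Some markers of other cell types also differed between the libraries. Of the 118 genes that passed the 2-fold rule, 94 were higher in replicate 1, as H19 was, and 24 in replicate 2. All 6 adipocyte markers were higher in replicate 1, their sum being 11.0 TPM there and 2.92 TPM in replicate 2, with Cfd at 5.27 and 1.45 TPM. None of the 6 had the 200 summed counts needed for the rule. Summed fibroblast markers were at 166 and 186 TPM and endothelial markers at 150 and 146 TPM. The 6 macrophage markers summed to 40.2 and 41.2 TPM. Of these 4 were higher in replicate 2 and 2 in replicate 1, among the latter Adgre1, 2.56-fold higher there. Some other leukocyte genes, picked after their values were seen, were also higher in replicate 1. Their log2 ratios of replicate 2 over replicate 1 were -2.97 for the integrin gene Itgb2, -2.65 for the properdin gene Cfp and -1.23 for the oxidase gene Cybb. Not all leukocyte genes shared this, with -0.06 for Cd163 and 0.33 for Fcrls. A single mesothelial gene, Wt1, picked for its value like Itgb2, Cfp and Cybb, had -1.26. Neuron and glia markers summed to 5.09 and 4.26 TPM. The part of fat, leukocyte or mesothelial RNA in the H19 difference was not tested.

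RNA of genes whose proteins keep imprints in place was measured as well. Of 20 genes listed for imprint maintenance 12 passed 1 TPM in both hearts, beside 48.9% of all protein-coding genes. Trim28, the corepressor recruited to control regions, was at 27.1 and 28.7 TPM, and Zfp445, a zinc finger protein that recruits it, at 25.6 and 21.8 TPM. Zfp57, its counterpart in embryos, was at 0.62 and 0.55 TPM. The insulator protein gene Ctcf was at 14.7 and 13.3 TPM, the DNA methyltransferase genes Dnmt3a and Dnmt1 at 16.9 and 18.96 TPM and at 3.76 and 3.99 TPM, and the oocyte factor gene Dppa3 was listed at 0. Genes of fetal growth and proliferation were low beside the imprinted genes, with 0 of 9 at 1 TPM in both hearts, including Mki67 at 0.83 and 0.75 TPM and the fetal RNA-binding protein gene Igf2bp1 at 0.01 and 0.04 TPM.

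In 14 of the 17 clusters or loci at least 1 imprinted gene passed 1 TPM in both hearts. The exceptions were the single genes Nnat, Nap1l5 and Rasgrf1. Of 102 neighbours listed for these loci, some of them imprinted themselves, 61 (59.8%) passed, beside 48.9% of all protein-coding genes. In the second quantification 22 of the 35 genes passed, of which 21 were shared with the RSEM-layout tables, beside 34.4% of protein-coding and long noncoding genes. Peg3, at 0.872 and 0.869 TPM there, left the set, and Zim1, at 1.71 and 1.30 TPM, entered it. Peg3 and Zim1 thus lay close to the threshold.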

How the data were processed

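Total RNA was sequenced from the heart of 2 animals, 1 library each. The authors deposited gene and transcript tables with expected counts and TPM, and per the file headers these have the RSEM layout. The transcript tables give each transcript's percent of its gene, as deposited. A second deposited quantification, in the kallisto layout per the file headers, gives estimated counts and TPM. Per the file listings, all use mm10 and GENCODE M21. The aligner was not given in the sources used here. Among deposited rows an RNA of 100 bases or less has an effective length of 0. Members and gene lists were chosen with earlier results of these data known. All 35 members are described. Of other lists, mainly the highest genes by mean TPM, genes overlapping a member and genes differing between the animals are named, with a few chosen after their values were seen.

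Ratios between libraries used rounded expected counts scaled by TMM (edgeR 4.0.16), with exact Clopper-Pearson intervals, which cover counting error only. DESeq2 1.42.0 size factors, other thresholds, a rescaled TPM, the second quantification and single libraries were alternatives. Only the rule for a difference and its interval were tested on simulated counts, whose spread between libraries was not set from these data. The other steps were not tested in this way. Over 17075 genes the counts of both libraries differed by a chi-square of 15.4 for each degree of freedom, more than sampling noise. With 1 group no p-value is given, and the SD over 2 libraries may include technical spread. Shared words of 31 bases were counted in GENCODE M21 transcripts. Work was done in Python 3.11.15. RefSeq promoter windows were matched for 27 of the 35 members.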

Additional observations from a re-analysis of the deposited data

How the results depend on the processing

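The count of imprinted genes at 1 TPM in both libraries, 22, became 23 at 0.5 TPM, 15 at 5 TPM, 22 in the second quantification and 23 after TPM was rescaled to nuclear protein-coding and long noncoding genes. It was 22 without replicate 1 and 23 without replicate 2. The count of members differing between the animals was 0 and became 1, H19, at a fold of 1.5, and stayed 0 with DESeq2 size factors, with total counts as scaling, with a minimum of 50 summed counts, with no filter and in the second quantification. The median over the members, 1.65 TPM, became 2.01 TPM in the second quantification and 4.44 TPM after rescaling, which raises every gene by 2.72 and 2.66 times in the 2 libraries. It ranged from 1.64 to 1.66 TPM with 1 library left out. Mest was the 1 member at 1 TPM whose mean shifted more than 1.5-fold with the second quantification. With 0.01 or 1 added to TPM in place of 0.1, several mean log2 ratios moved. Kcnq1 over Kcnq1ot1, 5.32, became 5.82 and 3.44, and Cdkn1c over Kcnq1ot1, 5.21, became 5.71 and 3.34. Sgce over Peg10, 3.89, became 4.25 and 2.36, and Ube3a over Snhg14, 4.98, became 5.07 and 4.33. H19 over Igf2 stayed at -0.41 and -0.39. The log2 ratio of H19 over Igf2, -0.41 as a mean, ranged from -0.860 without replicate 1 to 0.036 without replicate 2. That of Peg3 over Zim1, 0.12 as a mean, was -0.71 in the second quantification and ranged from -0.35 without replicate 2 to 0.59 without replicate 1. The cause of these shifts was not tested. With 1 group, no contrast and 2 libraries, the SD rests on a single difference. No paired analysis was possible because there is only 1 group. Under about 10 counts, as for Dlk1, Rtl1, Mirg, Usp29 and Rasgrf1, levels are limited by depth.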

Other observations

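Imprinted genes outside the 17 loci were also present. Of 20 such genes listed, 13 passed 1 TPM in both hearts, beside 48.9% of all protein-coding genes. The highest were Dcn, a proteoglycan of fibroblasts imprinted in placenta, at 103.5 and 121.1 TPM, and Commd1, a regulator of copper and of NF-kappa-B, at 48.9 and 53.5 TPM. Zrsr1, a retrogene with a germline methylation mark that lies inside Commd1, was at 6.66 and 5.68 TPM. Pde4d, a cyclic AMP phosphodiesterase, was at 12.3 and 13.8 TPM, and Gab1, a docking protein, at 11.7 and 12.9 TPM.

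Parents and paralogs of the imprinted genes passed 1 TPM in 16 of 21 cases, beside 48.9% of all protein-coding genes. Grb14, Sgca, Nap1l4 and Rtl8a were the highest of the 21 by mean TPM. Rtl8a, a relative of Rtl1, was at 49.9 and 54.8 TPM. Cdkn1a, a relative of Cdkn1c, was at 11.4 and 3.81 TPM, 3.20-fold higher in replicate 1, while Cdkn1c was higher in replicate 2.

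Mrpl23, a mitochondrial ribosomal protein gene beside H19, was at 12.3 and 0.40 TPM in the RSEM-layout tables and at 39.1 and 36.7 TPM in the second quantification. That difference between the animals is therefore found in only 1 of the 2 quantifications.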
